A study of Salmo salar with 30 samples.

Results

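On an array of 14841 non-control probes, 74 probes had mean signals that differed from control one way with corn gluten and the opposite way with soybean meal in the distal intestine of Atlantic salmon. They were chosen by their measured values. A probe counted if both corn gluten diets differed from control in the same direction by more than 0.4 log2 units and soybean meal alone differed in the other direction by more than 0.4. It also had to exceed the local background clearly (the scanner software's well-above-background flag) on 5 or more of the 30 arrays, which 13577 probes did. Of the 74 probes, 40 were higher than control with both corn gluten diets and lower with soybean meal, and are called corn-raised here. The other 34 were lower with both corn gluten diets and higher with soybean meal, and are called corn-lowered. The values that chose the probes are given below as a description without a test.

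Atlantic salmon of 177 g at the start were fed 1 of 6 diets for 67 days at 11.2 °C, and RNA of the distal intestine of 5 fish per diet was hybridised to 1 array per fish. The control feed was high in fish meal. The other feeds held soybean meal alone, soybean meal with package 1 (soybean meal + P1), soybean meal with package 2 (soybean meal + P2), corn gluten alone, or corn gluten with package 2 (corn gluten + P2). P1 was 0.01% butyrate with 1.5% arginine, and P2 was 0.01% butyrate with β-glucan at 0.1% and nucleotides at 0.05%. The names of the deposited files for the corn gluten fish also mention pea, which the labels do not, so whether these feeds held pea is unknown here. Strain, sex and age are not given in the sources used here, and the fish were held in 18 tanks without a label that says which fish shared one. All p-values therefore treat fish as independent.

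The distal intestine is the hindmost part of the salmon gut, where absorbing epithelial cells take up proteins and other large molecules and where immune cells are abundant. Soybean meal is known to inflame this segment in salmon, with shortened mucosal folds and loss of the absorptive vacuoles of the epithelium. Corn gluten is a protein concentrate from maize that holds no soy saponins. Butyrate is a fatty acid that gut epithelium uses as fuel, β-glucan is a cell wall polysaccharide that innate immune cells recognise, and arginine and nucleotides serve as building blocks for dividing cells. No gene name comes with the probes in the files used here, and a match against the species' RefSeq gene table named 0 of 14841. Probes are therefore given by identifier, and markers of the tissue or of other cell types could not be checked. In whole tissue, fewer cells of a type and less RNA per cell cannot be told apart.

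Values are log2 signals relative to the array's 75th percentile, so a value of 0 is that percentile, and a difference of 1 is a 2-fold change. The arrays had 12491 to 13376 probes well above background, and 0 spots were saturated. Only 17 of the 40 corn-raised probes (42.5%) and 17 of the 34 corn-lowered probes (50%) were well above background on all 30 arrays, against 84.6% of the 13577 probes. In soybean meal fish, 11 corn-raised probes were not well above background on any of the 5 arrays. In control fish this held for 3 of them, and with either corn gluten diet for 0. Among corn-lowered probes, 3 carried the flag in no corn gluten fish and 3 in no corn gluten + P2 fish. Differences of such dim probes depend on the background correction.

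The corn-raised probes were higher than control by a median of 0.78 log2 units with corn gluten and of 0.93 with corn gluten + P2. With soybean meal their median difference was −0.91. Their largest differences were 4.46 with corn gluten, 4.56 with corn gluten + P2 and −4.06 with soybean meal. The values 4.46 and −4.06 belong to Ssa#TC110129, well above background on 16 arrays and on 0 of the 5 soybean meal arrays. The value 4.56 belongs to Ssa#STIR38525, well above background on 15 arrays, with an SD of 2.64 between control fish and a difference of 1.28 with corn gluten. The shifts of the corn-lowered probes were smaller, with medians of −0.66 and −0.71 in the corn gluten diets and 0.67 with soybean meal, and extremes of −2.42, −2.32 and 2.94. The extremes −2.42 and −2.32 belong to Ssa#S30241035, well above background on 6 arrays, with an SD of 4.88 between control fish. The extreme 2.94 belongs to Ssa#S35701148, well above background on 24 arrays, with an SD of 3.46 between soybean meal fish. Over all probes the median differences in these 3 comparisons lay between −0.03 and 0.01. All 3 comparisons use the same control fish.

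The choice used mean differences and not their error, and many of the 74 probes varied widely between fish. The median standard error of a difference was 0.47 log2 units for corn-raised and 0.49 for corn-lowered probes, against 0.19 over all probes. Of the corn-raised probes, 10 exceeded 2 standard errors in all 3 comparisons and 11 in none of them. Of the corn-lowered probes, 4 exceeded it in all 3 and 12 in none. These counts describe the precision of the values that chose the probes and are no test of them. Just inside the threshold, the smallest of a probe's 3 shifts was 0.413 and 0.425 for corn-raised and 0.413 and 0.421 for corn-lowered probes. Just outside it was 0.394 and 0.398 for probes of the corn-raised pattern and 0.389 and 0.390 for those of the corn-lowered pattern.

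The following 4 probes ranked highest in their direction by the smallest of their 3 shifts, among probes well above background on all 30 arrays. Other such probes had larger single shifts, for example 1.58 with soybean meal in the corn-lowered Ssa#GRASP223648967. In control fish the corn-raised probe Ssa#GRASP223648271 lay at 0.58, 1.14, 1.55, 1.56 and 1.25. With corn gluten it lay at 2.63, 3.29, 3.33, 3.77 and 4.50, and with corn gluten + P2 at 2.79, 3.06, 2.22, 2.87 and 3.18. Every fish of both corn gluten diets was thus above every control fish. With soybean meal the values were −2.16, −0.96, −1.20, −0.85 and −1.07, all below control. Its mean differences from control corresponded to about 4.87-fold higher with corn gluten, 3.04-fold higher with corn gluten + P2 and 5.53-fold lower with soybean meal. The fish that had not entered the differences used for the choice were also low. Soybean meal + P1 fish lay at −1.19, −1.43, −0.77, −0.89 and −1.13, and soybean meal + P2 fish at −0.69, −0.80, 0.47, −0.63 and −1.15. Neither group overlapped with control. The control fish did enter the choice, and both package feeds held soybean meal. These values are therefore no separate test of the probe.

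The second corn-raised probe, Ssa#GRASP209733777, owed its place to 1 control fish. Control fish 1 lay at −4.87, while control fish 2 to 5 lay at 2.20, 3.36, 2.94 and 1.65. Corn gluten fish had 1.50, 3.89, 1.85, 3.89 and 3.32, a range that overlaps with those 4 control fish. Corn gluten + P2 fish had 1.48, 3.09, 3.89, −0.07 and 1.51. In soybean meal fish the values were −2.37, −3.55, −2.11, −0.91 and −0.87, above control fish 1 and below the other control fish. The difference with corn gluten was 1.83 ± 1.25 log2 units (SE).

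The corn-lowered probe Ssa#GRASP209150190 lay at 0.19, −0.23, −1.36, −1.25 and −0.13 in control fish. With corn gluten it lay at −1.94, −1.21, −0.64, −1.80 and −1.61, and with corn gluten + P2 at −1.40, −0.64, −1.77, −1.77 and −1.66. Both ranges overlap with that of the control fish. With soybean meal it lay at −0.13, 0.77, 0.33, 1.02 and 0.83, so only soybean meal fish 1 was within the control range. Ssa#S18850563 lay between 1.26 and 2.57 in control fish, between 0.43 and 2.30 with corn gluten and between 0.22 and 2.10 with corn gluten + P2. In soybean meal fish it lay between 1.91 and 2.91. For this probe all 3 diets overlapped with control, and the mean differences were −0.76, −0.69 and 0.63 log2 units with a standard error of 0.35.

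Soybean meal + P1 and soybean meal + P2 fish did not enter the differences that chose the probes, although the control fish did. Flags of all 30 arrays counted in the background filter, so these fish were not wholly apart from the choice. With soybean meal + P1, 22 of the 40 corn-raised probes were lower than control and 0 were higher at an adjusted p below 0.05 in limma, where 15.1% of all probes were called lower. Of the 34 corn-lowered probes, 4 were higher and 0 lower, where 14.8% of all probes were called higher. The corn-lowered count of 4 in 34 is near that background. With soybean meal + P2, 7 corn-raised probes were lower and 0 higher (8.08% of all probes called lower), and 1 corn-lowered probe was higher and 0 lower (9% called higher). In either direction, 29.9% and 17.1% of all probes were called with P1 and P2. The median difference over corn-raised probes was −1.13 log2 units with P1 and −0.61 with P2, and over corn-lowered probes 0.80 and −0.16, against −0.05 and −0.04 over all probes. These comparisons share the control fish with each other and with the choice of probes, so a control mean that was off by chance enters all of them. Each probe was also chosen for its shift with soybean meal alone, and both package feeds held soybean meal. The shares over all probes therefore do not show how many calls probes so chosen would give. With the normexp background correction, which itself moved the medians of all probes to −0.28 and −0.30, the corn-raised medians were −0.64 and −0.62 and the corn-lowered medians 0.13 and −0.48.

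Among the named probes, Ssa#GRASP223648271 was lower than control by a difference of −2.30 ± 0.31 log2 units with P1 and −1.78 ± 0.31 with P2 (SE, limma adjusted p = 5.43e-06 and 0.00031). In Ssa#GRASP209733777 soybean meal + P1 fish lay at −3.99, −5.94, −3.00, 0.18 and −1.27 and soybean meal + P2 fish at 0.74, −1.33, −0.15, −0.56 and −4.09. Through control fish 1, both groups overlapped with control. The probe had −3.86 ± 1.25 with P1 (SE, limma adjusted p = 0.0204) and −2.13 ± 1.25 with P2 (adjusted p = 0.266). The call with P1 was lost with slide as a block (−3.68, adjusted p = 0.101), and without soybean meal + P1 fish 1 or 2 or control fish 3 or 4 (−3.56, −3.08, −3.28 and −3.39). Without control fish 1 the probe was also called with P2, at −3.61 (adjusted p = 0.0143). In Ssa#GRASP209150190 soybean meal + P1 fish lay at −0.17, −0.31, 0.21, 0.28 and 0.39 and soybean meal + P2 fish at −0.86, −0.59, 0.38, 1.49 and 1.11, and both groups overlapped with control. It differed by 0.63 ± 0.38 with P1 and 0.86 ± 0.38 with P2 (SE, limma adjusted p = 0.224 and 0.127), and neither passed. Without soybean meal + P2 fish 1 the latter was 1.15 and passed (adjusted p = 0.039). With slide as a block its difference with P1 was −0.16, the opposite sign. In Ssa#S18850563 soybean meal + P1 fish lay at 2.77, 2.92, 2.66, 2.26 and 2.53 and soybean meal + P2 fish at 1.92, 2.25, 1.96, 0.99 and 2.24, beside 2.57, 2.25, 1.26, 1.45 and 2.31 in control fish. Again both groups overlapped with control. It differed by 0.66 ± 0.35 with P1 and −0.10 ± 0.35 with P2 (SE, limma adjusted p = 0.167 and 0.901).

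Soybean meal + P1 against soybean meal + P2 was the comparison in which neither group of fish had entered the differences that chose the probes. Their background flags did count towards the arrays a probe needed. The probes Ssa#S35508576, Ssa#S30262878 and Ssa#S30241035 reached that number only through these fish. In this comparison 0 of the 74 probes passed an adjusted p below 0.05 in limma, where 26 probes of the array (0.192%) did. Leaving out soybean meal + P1 fish 4 gave 1 call among the 74, while calls over all probes rose from 26 to 321. The 74 probes lay to both sides of the array's median difference of 0.00. Of the corn-lowered probes, 30 had a higher mean with P1 and 4 with P2, with a median difference of 0.79 log2 units. Of the corn-raised probes, 35 had a lower mean with P1 and 5 a higher one, with a median of −0.62. At an unadjusted p below 0.05, 14 corn-lowered probes (41.2%) were higher with P1, where 7.79% of all probes were. At the same level 10 corn-raised probes (25%) were lower with P1, where 9.77% of all probes were. In 7 corn-lowered probes every P1 fish lay above every P2 fish, an order that 2.41% of all probes had. In 4 corn-raised probes every P2 fish lay above every P1 fish, against 1.94% of all probes. Probes of a group vary together between fish, as given below, so these are not separate observations, and the choice required a shift in corn gluten + P2 fish, whose feed also held P2. Over the 17 probes of each group that were well above background on all arrays, the medians were 0.56 and −0.52. With the normexp correction the median over all corn-lowered probes was 0.37 and that over all corn-raised probes 0.00897, and over those 17 probes of each group they were 0.38 and −0.39. With slide as a block the medians were 0.42 and −0.44.

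The probe with the lowest p among those higher with P1 was Ssa#GRASP209736285, a corn-lowered probe. It lay at −3.45, −3.59, −3.33, −3.61 and −3.77 in soybean meal + P1 fish and at −5.49, −7.39, −4.16, −5.57 and −4.74 in soybean meal + P2 fish. The groups did not overlap, and the P1 fish were much closer to each other than the P2 fish. Its difference was 1.92 ± 0.74 log2 units (SE, limma adjusted p = 0.188), with 4 of the 5 P2 spots well above background. Control fish lay at −3.55, −4.14, −6.69, −5.81 and −4.15 and overlapped with the P1 fish. With the normexp correction its difference between the packages was 0.71 (limma adjusted p = 0.288).

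The probe with the lowest p among those lower with P1 was the corn-raised probe Ssa#S35591008. It lay at −8.01, −7.21, −7.10, −6.87 and −6.51 with P1 and at −5.12, −6.10, −5.67, −5.37 and −5.77 with P2. The groups did not overlap, and the spot of P1 fish 1 was not well above background. The difference was −1.54 ± 0.41 log2 units (SE, limma adjusted p = 0.0786). Control fish had −4.65, −4.58, −3.81, −2.47 and −3.98, above every fish of both package diets. Against control it was lower by −3.24 ± 0.41 with P1 and −1.71 ± 0.41 with P2 (SE, limma adjusted p = 3.6e-06 and 0.00539). The probe was named for low values with P1 relative to P2, and the control fish entered the choice of probes. The p-values against control are therefore no independent test of it. With the normexp correction the difference between the packages was −0.099, and those against control were −1.15 and −1.05 and still passed (limma adjusted p = 0.00239 and 0.00879). Soybean meal alone gave −4.06, −6.31, −5.56, −6.50 and −5.46, a range that overlaps with control through its fish 1 and with P2.

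Set side by side with soybean meal alone, whose fish were used for the choice, soybean meal + P1 had a median difference of 0.04 over corn-lowered and −0.22 over corn-raised probes. Soybean meal + P2 had −0.91 and 0.33. Corn gluten + P2 differed from corn gluten by a median of −0.04 over corn-lowered and 0.00 over corn-raised probes. The choice of probes fixes part of these differences, since a probe had to be far from control with soybean meal alone and on the same side of control with both corn gluten diets. They are given without a test.

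The mean over each group of probes was also taken in each fish, relative to the control mean. Over the corn-raised probes soybean meal + P1 fish lay between −1.74 and −0.87 and soybean meal + P2 fish between −1.03 and −0.22, which overlap. Control fish lay between −0.37 and 0.64, above all fish of both package diets except that soybean meal + P2 fish 3 (−0.22) was within their range. Over the 17 corn-raised probes well above background on all arrays, control fish lay between −0.67 and 0.55. Soybean meal + P1 fish lay below that range, between −1.68 and −0.89. Of the soybean meal + P2 fish only fish 5 (−1.06) lay below it, and the others were within it, between −0.60 and −0.28. Over the corn-lowered probes soybean meal + P1 fish lay at 1.14, 0.44, 0.89, 0.92 and 0.80 and soybean meal + P2 fish at −0.40, −0.09, 0.38, −0.55 and 0.35. These groups did not overlap. Control fish ranged from −1.10 to 0.89 over the same probes, a wider range than in either package diet. In soybean meal fish 1 the mean was −0.22, and in the other soybean meal fish it lay between 0.78 and 1.46. The mean and SD were 0.84 ± 0.26 with P1 and −0.06 ± 0.42 with P2, beside an SD of 0.80 in control (n = 5 each). Over the 17 corn-lowered probes well above background on all arrays, P1 and P2 fish did overlap. P1 fish lay between 0.42 and 0.83 and P2 fish between −0.072 and 0.47, with means of 0.64 ± 0.16 and 0.20 ± 0.24 (SD, n = 5). The P2 mean thus changed sign relative to control, and soybean meal fish 1 lay at 0.36.

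Over the corn-lowered probes, the control fish of slide 2 lay below those of slides 1 and 6. On slide 1, control fish 1 and 2 lay at 0.89 and 0.37, on slide 2 control fish 3 and 4 at −1.10 and −0.55, and on slide 6 control fish 5 at 0.40. Corn gluten + P2 fish lay at −1.25 and −0.56 on slide 1, within their range of −1.67 to −0.02 on slide 5. Soybean meal + P2 fish lay at −0.40 and −0.09 on slide 2, at 0.38 and −0.55 on slide 4, and at 0.35 on slide 6. Corn gluten fish lay at 0.11 and −0.89 on slide 6 and at −1.14, −0.90 and −1.27 on slide 4. On slide 2, which also held 2 soybean meal + P2 fish, the corn-lowered probes were higher with P2 than with control by a median of 0.58. On slide 6, which held 1 fish of each, the median was −0.22. The fit with slide as a block gave 0.14 and that without control fish 1 gave 0.05, against −0.16 over all fish, so the sign for P2 against control was not stable. Soybean meal + P1 and control shared only slide 6 (2 fish against 1), where the corn-lowered median was 0.35 and the corn-raised median −1.55. P1 and P2 also shared only slide 6 (2 fish against 1), with medians of 0.64 and −0.41. In the differences that chose the probes, soybean meal alone shared no slide with control. Corn gluten shared only slide 6 with control, and corn gluten + P2 only slide 1. The soybean meal shift that chose the probes thus compares fish of different slides, and diet and slide cannot be told apart in this plain difference of means. Each of the other diets shared slides with both. Corn gluten and soybean meal + P2 fish shared slide 4 with soybean meal and slide 6 with control, and soybean meal + P2 also slide 2 with control. Soybean meal + P1 fish shared slides 3 and 5 with soybean meal and slide 6 with control. Corn gluten + P2 fish shared slide 5 with soybean meal and slide 1 with control. A fit with slide as a block was not made for this shift. The part of slide in these values was not tested beyond this.

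Within diets the 74 probes varied more between fish than most probes. A fixed limit on mean differences, without regard to their error, favours such probes. The within-diet SD had a median of 0.76 log2 units for corn-raised and 0.80 for corn-lowered probes, against 0.30 over all probes. Among probes well above background on all 30 arrays it was 0.50 and 0.57, against 0.26. Deviations of fish from their diet mean ran together within the corn-lowered group. The choice did not use these deviations directly. Single fish can move a diet mean, however, so probes that vary together can be chosen together. The median correlation over its 561 pairs of probes was 0.32 across 30 fish, 31.7% of pairs exceeded 0.5, and the highest was 0.95. Over all pairs of the 13577 probes the median was 0.01 and 2.96% exceeded 0.5. Within the corn-raised group the median was 0.14, with 5% above 0.5, and between both groups it was −0.07. The 17 corn-lowered probes well above background on all arrays had a median of 0.28 among themselves. The points of each correlation share array, slide and scaling, so these values are descriptions.

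The members most like Ssa#GRASP223648271 in these deviations were 2 other corn-raised probes, with r of 0.49 and 0.47 over 30 fish, and 237 and 313 probes of the array were more alike still. For Ssa#GRASP209150190 the closest members were 2 corn-lowered probes with r of 0.63 and 0.62, and 14 and 19 probes of the array exceeded them. Identifiers beginning with Omy made up 4 of the 40 corn-raised and 2 of the 34 corn-lowered probes, near the 8.51% of all probes kept. Only 2 of the 74 probes sat on spots next to each other on the array.

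Which probes met the rule depended on single fish. When each of the 20 fish used for the differences was left out in turn, 60 to 107 probes met it. Of the 74, 15 met it in all 20 cases, 12 of them corn-raised and 3 corn-lowered. Leaving out control fish 1 kept 43 of the 74 probes in a set of 74, and leaving out control fish 3 kept 49 in a set of 98. Leaving out soybean meal fish 1 kept 73, and 107 met the rule in all, 62 of them corn-lowered. With a limit of 0.6 in place of 0.4, 22 corn-raised and 7 corn-lowered probes remained, and with 0.8 there were 12 and 4. With the normexp correction 32 probes met the rule, 23 of which were among the 74.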

How the data were processed

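The files analysed were 30 Agilent Feature Extraction outputs (version 12.0.1.1 and a 1-colour protocol, per the file headers), 1 per fish. The authors deposited a processed signal, which is a linear intensity after the software's own background subtraction. Flags for spots well above background, outlying or saturated come from the same software, per the file headers. Signals were put on the log2 scale and centred on the 75th percentile of the 14841 non-control probes of the same array. The members and lists were chosen with earlier results of these data known. Members were found from all spots; for the tests, 598 outlier spots (2 in the members) were missing. Probes well above background on at least 5 arrays (13577) entered limma 3.58.1 (R 4.3.3, eBayes, 1 coefficient per diet, all 30 arrays), with Benjamini-Hochberg adjustment over the probes of each comparison. The fit was tested on simulated data. Alternatives were normexp (offset 50, on the spot median, since the spot mean is not in the files used here), other scalings and filters, slide or fish number as a block, fits to 2 diets, single fish left out, and the authors' deposited table of intensity values. Named probes were the 2 per direction with the largest smallest-of-3 shift and full detection, and the 2 with the lowest p between packages. Gene lists and cell type markers could not be used. The number of arrays limits the precision.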

Additional observations from a re-analysis of the deposited data

Results flagged for a closer look

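Each value below lay apart from the other 4 fish of its diet, with a gap to the nearest fish of more than 0.71 of the diet's whole range. This was seen in 5 of 48 sets of 5 fish looked at. In independent sets chance gives about 1 in 20. The sets here shared fish and belong to probes chosen by their values, so their number cannot be compared with that rate. Ssa#GRASP223648271 lay at −2.16 in soybean meal fish 1 and between −1.20 and −0.85 in the others. Ssa#GRASP209733777 lay at −4.87 in control fish 1 and between 1.65 and 3.36 in the others. Ssa#S18850563 lay at 0.99 in soybean meal + P2 fish 4 and between 1.92 and 2.25 in the others. The mean over the corn-raised probes, relative to control, was 1.86 in corn gluten fish 5 and between 0.76 and 1.05 in the others. The mean over the corn-lowered probes was 0.11 in corn gluten fish 3 and between −1.27 and −0.89 in the others.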

How the results depend on the processing

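The 74 probes were 32 with the normexp correction, 29 and 16 with limits of 0.6 and 0.8, and 60 to 107 with 1 fish left out. With normexp, 14 members in place of 26 were called for soybean meal + P1 against control, as calls over all probes went from 4054 to 2887. The corn-raised median there was −0.64, and for P1 against P2 it was 0.00897. A fit to only the 2 diets called 5 members in place of 8 for soybean meal + P2 against control, as calls over all probes went from 2319 to 1439. The causes were not tested. With 1 fish left out, the member counts were 20 to 28 (P1 against control), 6 to 12 (P2 against control) and 0 to 1 (P1 against P2). Calls over all probes were then 3229 to 4267, 1677 to 2528 and 2 to 321. The corresponding medians were −1.37 to −1.01, −0.68 to −0.40 and −0.71 to −0.44 over corn-raised probes, and 0.56 to 0.92, −0.37 to 0.05 and 0.69 to 1.02 over corn-lowered probes. Signs turned for Ssa#GRASP209150190 with slide as a block (P1 against control, −0.16) and without soybean meal + P2 fish 4 (P1 against P2, 0.068, range −0.52 to 0.068 with 1 fish left out). They turned for Ssa#S18850563 (P2 against control) with slide as a block (0.34) and without soybean meal + P2 fish 4 (0.12) or control fish 1 (0.053), with a range of −0.27 to 0.12 with 1 fish left out. Deviations of same-numbered fish had r of −0.14 to 0.25 (P1 and control), −0.23 to 0.18 (P2 and control) and 0.046 to 0.38 (P1 and P2). In none of these did all 5 pairs exceed 0.1, and fish number was not taken as a pairing. With fish number as a replicate block 27, 12 and 0 members were called, against 26, 8 and 0. Calls over all probes were 4039, 2378 and 44 with this block, against 4054, 2319 and 26. With slide as a block calls over all probes were 2629, 2310 and 0. For P1 against P2 they were also 0 in a fit to only the 2 diets, 13 with scaling to the array median and 29 with quantile normalization. Slide as a block and the remaining settings gave member counts within 1.5 times and medians within the spread between fish. For corn-lowered probes against control this spread was 0.79 log2 units, beside a median of 0.80 with P1, so this limit says little there. With normexp the P1 median was 0.13. With slide as a block the P2 median turned from −0.16 to 0.14.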
